A study of Mus musculus with 7 samples.

Results

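Described here are the transcripts of the 2 cone opsins of the mouse, *Opn1sw* and *Opn1mw*, and of 3 nuclear receptors that act on opsin expression in cones, *Thrb*, *Rxrg* and *Rora*, in the retina of spinocerebellar ataxia type 7 (SCA7) mice and of wild-type (WT) mice. These 5 genes were chosen by name, for what they are known to do, out of the 52550 genes of the count table, and all 5 were found in it and passed the filter on low counts. *Opn1sw* encodes the short-wavelength opsin and *Opn1mw* the medium-wavelength opsin, the light-sensing pigments of the cone outer segment. Most mouse cones make both pigments, in proportions that change along the dorsal to ventral axis of the retina. *Thrb* encodes thyroid hormone receptor beta, whose isoform TRβ2 is known in cones for switching on the medium-wavelength opsin and holding back the short-wavelength opsin. *Rxrg* encodes the retinoid X receptor RXRγ, a dimer partner of TRβ2 that is known to hold back the short-wavelength opsin in dorsal cones. *Rora* encodes RORα, an orphan receptor known to activate both opsin genes together with the homeodomain factor CRX.

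The SCA7 mice (n = 3) were homozygous knock-in mice that carry an expanded CAG repeat in *Atxn7* on both chromosomes, expressed from the gene's own promoter in every cell that uses it, so no unexpanded ataxin-7 was left. The WT mice (n = 4) carried no knock-in allele. All mice were on the C57BL/6J background and 12.5 weeks old, and the study used males and females without giving the sex of each mouse in the labels. A library was made from the 2 retinas of a single mouse, as whole tissue, so the spread between libraries is a spread between mice. In whole retina, fewer cells of a type and less RNA per cell cannot be told apart.

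Levels are CPM, counts scaled to library size with TMM factors, and stand as mean ± SD over mice. The genotypes were compared with the edgeR quasi-likelihood test over 20128 genes. At an adjusted p under 0.05, genes with a fold change, FC (SCA7/WT), below 0.7 were called downregulated and those with FC over 1.3 upregulated. These calls took 7.91% of the genes tested down and 7.47% up, while the adjusted p alone was passed by 14.2% of genes lower in SCA7 and by 14.2% higher in SCA7, and over all genes the median log2 fold change was -0.02. Total counts lay between 56497675 and 96635832 per library, so that 1 count equalled 0.00972 to 0.0187 CPM. None of the marker genes of the retinal cell types was at 0 in any library. The summed level of 10 rod markers lay between 34975 and 36302 CPM in WT and between 12528 and 15597 CPM in SCA7, and that of 10 microglia markers between 46.5 and 58.6 CPM in WT and between 113 and 129 CPM in SCA7. The targeted gene, *Atxn7*, was at 39.2 ± 4.26 CPM in WT against 37.6 ± 2.98 CPM in SCA7 (log2 fold change -0.06, SE 0.09, edgeR adjusted p = 0.64), which does not check the labels, because the knock-in changes the repeat and not the transcript's presence.

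The upstream sequences of the opsins are shown because the receptors and CRX act on these genes through DNA. They are the 250 bases before the RefSeq start in GRCm38.p6, read 5′ to 3′ on the gene's strand, chr6:29380514-29380763 on the minus strand for *Opn1sw* and chrX:74127216-74127465 on the plus strand for *Opn1mw*. Capitals mark 4 short motifs that were searched on both strands, TAATC (the core bound by CRX and OTX2), AGGTCA (the half-site of nuclear receptors), TGCTGA (a half-site of NRL) and TATAAA (the TATA box).
Opn1sw: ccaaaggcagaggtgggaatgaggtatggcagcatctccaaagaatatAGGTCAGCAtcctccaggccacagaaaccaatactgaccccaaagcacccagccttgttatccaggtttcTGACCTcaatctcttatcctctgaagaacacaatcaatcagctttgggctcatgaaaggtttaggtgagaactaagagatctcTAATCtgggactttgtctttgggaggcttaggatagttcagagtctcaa
Opn1mw: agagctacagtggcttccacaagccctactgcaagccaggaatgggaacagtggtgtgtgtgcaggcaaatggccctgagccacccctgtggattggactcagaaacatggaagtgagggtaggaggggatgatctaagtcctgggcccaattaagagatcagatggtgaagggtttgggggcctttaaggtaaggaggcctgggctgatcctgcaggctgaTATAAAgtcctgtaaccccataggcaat

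The upstream sequences of the opsins shared none of these motifs. That of *Opn1sw* held TAATC at 49 to 45 bases before the start. It also held AGGTCA on the plus strand at 202 to 197 bases and on the minus strand at 132 to 127 bases, the first of which overlaps TGCTGA on the minus strand at 199 to 194 bases, and it held no TATAAA. The sequence of *Opn1mw* held TATAAA at 28 to 23 bases before the start and none of the other 3 motifs. Of all 32851 RefSeq promoters of the same length, 19.8% held TAATC, 14.02% AGGTCA, 16.1% TGCTGA and 12.4% TATAAA, so each of these words is common. RefSeq lists 2 promoters each for *Thrb* and *Rxrg* and 1 for *Rora*. TAATC and AGGTCA each stood in a promoter of *Thrb* and of *Rxrg*, TATAAA also stood in a promoter of *Thrb*, and *Rora* held none of the 4 motifs. The *Opn1sw* gene of the annotation used for the counts reaches further upstream than this RefSeq start, up to base 29388468. A match in this window describes letters and not binding.

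Both cone opsins were almost lost from the SCA7 retina, to little more than 1% of the WT level. *Opn1sw* (ENSMUSG00000058831; chr6:29376671-29388468 of mm10, minus strand) was at 535, 574, 527 and 489 CPM in the WT libraries 1 to 4. In the SCA7 libraries 1 to 3 it was at 3.69, 6.97 and 8.80 CPM. The lowest WT library thus stood far above the highest SCA7 library, and the genotypes did not overlap, a condition that 18.3% of the genes tested met in this direction. The means were 531 ± 34.8 CPM (SD, n = 4) for WT and 6.49 ± 2.59 CPM (SD, n = 3) for SCA7. Its log2 fold change was -6.34 (SE 0.32, 95% interval -7.10 to -5.57, adjusted p = 1.9e-05, quasi-likelihood test of edgeR, adjusted by Benjamini-Hochberg over all genes), a fitted level 80.7 times lower, so *Opn1sw* was downregulated. The residual *Opn1sw* signal rests on 227, 595 and 906 counts in the SCA7 libraries.

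*Opn1mw* (ENSMUSG00000031394; chrX:74127464-74150760, plus strand) followed the same course from a lower WT level. It was at 100.03, 107, 119 and 117 CPM in the WT libraries 1 to 4 and at 0.536, 1.14 and 2.06 CPM in the SCA7 libraries 1 to 3. Again no SCA7 library came near a WT library. The means were 111 ± 9.08 CPM in WT against 1.24 ± 0.768 CPM in SCA7, with a fitted level 84.0 times lower and a log2 fold change of -6.39 (SE 0.38, 95% interval -7.32 to -5.47, adjusted p = 9.1e-05, edgeR). Without SCA7 replicate 3, the highest of the 3, the log2 fold change was -6.99. Here the SCA7 values rest on 33, 97 and 212 counts, so *Opn1mw* was still detected in every SCA7 mouse. Among the 20128 genes tested, *Opn1mw* had the third lowest and *Opn1sw* the fourth lowest log2 fold change.

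Among themselves the SCA7 mice differed more in the opsins than the WT mice did. The highest and the lowest SCA7 library were 2.39-fold apart for *Opn1sw* and 3.84-fold apart for *Opn1mw*, against 1.17-fold and 1.19-fold in WT. SCA7 replicate 1 was the lowest and SCA7 replicate 3 the highest for both opsins. The same mice were not always at the ends for the other cone genes, since replicate 1 was the lowest in 4 and replicate 3 the highest in 5 of the 7 cone genes that were downregulated. The gene-wise biological coefficient of variation was 0.190 for *Opn1sw* and 0.249 for *Opn1mw*, above the common value of 0.106.

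**Figure D1:**
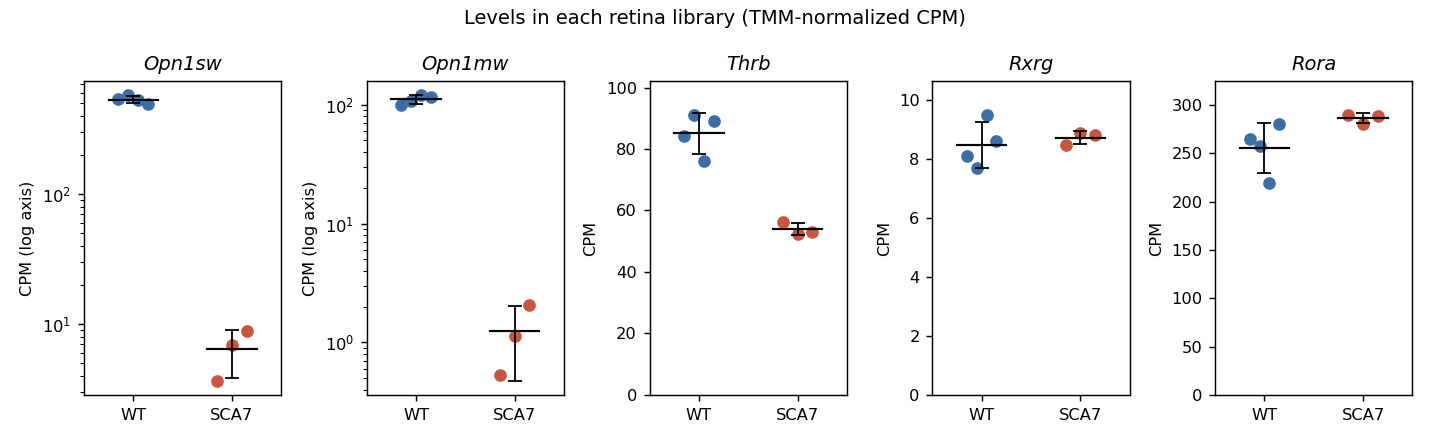
Level of each of the 5 genes in every retina library, as TMM-normalized CPM on the vertical axis, with the 4 WT libraries in blue and the 3 SCA7 libraries in red; lines are group means and bars SDs, and the axes of the opsins are logarithmic while those of the receptors start at 0. Both opsins and Thrb are separated by genotype, Rxrg overlaps, and Rora in SCA7 (281 to 290.1 CPM) sits just above the highest WT library (280.3 CPM).

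Whether the 2 opsins were lost in step was asked from their ratio within each library, which does not depend on the library's scaling. The count of *Opn1sw* was 5.35, 5.39, 4.41 and 4.18 times that of *Opn1mw* in the WT libraries 1 to 4 and 6.88, 6.13 and 4.27 times in the SCA7 libraries 1 to 3. WT and SCA7 values overlapped. The mean ratio of the levels per kb of transcript was 3.21 ± 0.417 in WT and 3.83 ± 0.892 in SCA7. On the log2 scale the ratio of CPM, with 0.1 CPM added to each gene, was 2.26 ± 0.19 in WT and 2.38 ± 0.29 in SCA7, a difference of 0.12 (exact two-sided permutation test over all 35 assignments of the labels, p = 0.57, and 0.57 after adjustment over the 5 relations tested). A shift of the ratio was therefore not detected with 4 and 3 mice. With nothing added, the difference in levels per kb was 0.23 (exact permutation p = 0.34), of the same sign. The sign turned with 1 CPM added, which is close to the level of *Opn1mw* in SCA7 itself. The difference was then -0.52 (exact permutation p = 0.0286, the smallest that the 35 assignments can give).

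The opsins were lower still than the other genes of cone phototransduction. Of the 9 other cone genes, 7 were downregulated, 1 was upregulated and 1 was not called, and the median of the 9 log2 fold changes was -1.22. Among all genes tested, 7.91% were called down and 7.47% up. Next to the opsins came *Arr3*, which encodes cone arrestin and shuts off the activated pigment, at 179.6 ± 20.3 CPM in WT against 19.9 ± 4.56 CPM in SCA7 (log2 fold change -3.17, SE 0.17, adjusted p = 2.5e-06, edgeR). The subunits of the cone phosphodiesterase, *Pde6h* (inhibitory) and *Pde6c* (catalytic), had log2 fold changes of -2.10 and -1.31 (edgeR adjusted p = 4.8e-04 and 5.0e-07). *Gnat2*, the alpha subunit of cone transducin, was at -1.82 and *Gngt2*, its gamma subunit, at -1.22 (edgeR adjusted p = 1.2e-08 and 3.8e-05). The cone channel subunits changed least among the downregulated genes, *Cnga3* by -1.02 and *Cngb3* by -0.83 (edgeR adjusted p = 5.2e-06 and 2.5e-06).

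Not every gene of the cone list was lower in whole SCA7 retina, and levels in cones alone were not measured. *Gnb3*, the beta subunit of cone transducin that ON bipolar cells also use, was upregulated from 265 ± 13.5 to 552 ± 30.3 CPM (log2 fold change 1.06, SE 0.07, adjusted p = 5.5e-07, edgeR). *Slc24a2*, a sodium, calcium and potassium exchanger of cones, was at 65.5 ± 5.93 CPM in WT against 83.9 ± 5.85 CPM in SCA7, which passed the test (log2 fold change 0.36, edgeR adjusted p = 0.0047) but not the FC threshold.

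In each SCA7 library the opsins lay further below their WT level than any other cone gene. As a percentage of the WT mean, *Opn1sw* was at 0.694, 1.31 and 1.66% and *Opn1mw* at 0.484, 1.03 and 1.86% in the SCA7 libraries 1 to 3. The 7 other downregulated cone genes ranged from 8.68% (*Arr3*) to 57.2% (*Cngb3*). Set against the mean log2 CPM of the 9 other cone genes in the same library, *Opn1sw* went from 2.36 ± 0.12 in WT to -2.94 ± 0.58 in SCA7, a difference of -5.30. By the same measure *Opn1mw* went from 0.10 ± 0.11 to -5.32 ± 0.83, a difference of -5.42. Each difference had p = 0.0286 in the exact two-sided permutation test, the smallest the design allows, and 0.0357 after adjustment over the 5 relations. Leaving *Gnb3* and *Slc24a2* out of the cone list, a choice made after seeing the data, left the opsins below the remaining cone genes, by -4.78 for *Opn1sw* and -4.90 for *Opn1mw*. Against the summed CPM of the cone list the differences were -5.94 and -6.06, and with 1 CPM added they were -5.12 and -4.60.

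**Figure D2:**
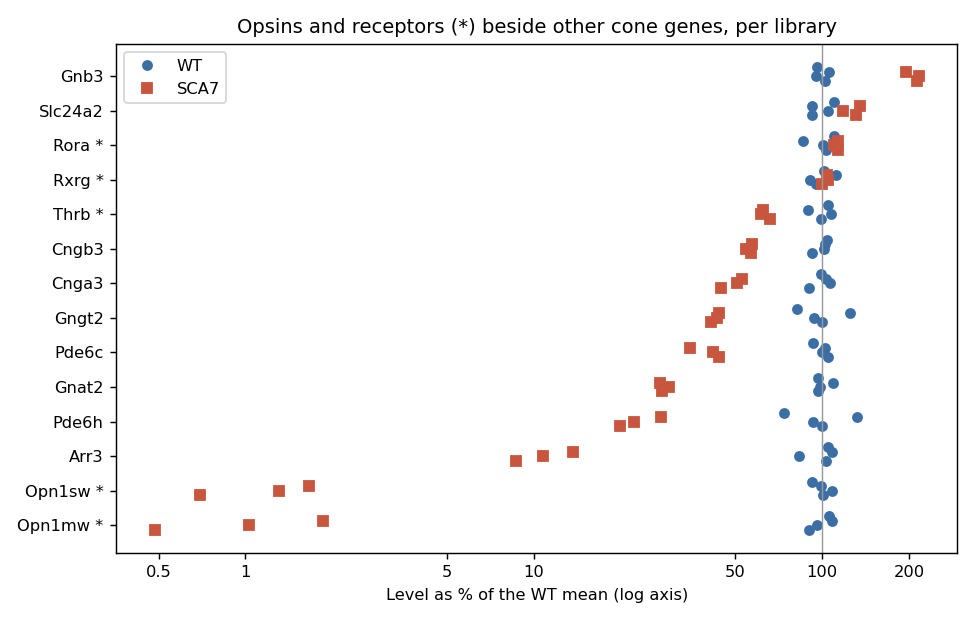
Level in each library as a percentage of the gene's WT mean, on a logarithmic axis, for the 5 genes described (*) and the 9 other cone genes, with WT as blue circles and SCA7 as red squares. The opsins sit near 1% in SCA7, Arr3 near 10%, Thrb at 61.6 to 65.9%, Rxrg near 100%, and Gnb3 near 200%.

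Of the other 6 opsin genes, 3 were downregulated and 3 were not called, against 7.91% downregulated over all genes tested. The median of the log2 fold changes of these 6 genes was -0.92. *Rgr*, an opsin of Müller glia and pigment epithelium, had a log2 fold change of -3.57 (edgeR adjusted p = 0.0024), with 40.0 CPM in WT replicate 3 against 81.2 CPM on average in the other WT mice. Of the 6 pigment epithelium markers, *Lrat* (-3.21) and *Rpe65* (-2.29) were downregulated, and *Pmel* (-0.90), *Mitf* (0.02), *Best1* (0.08) and *Tyrp1* (0.51) were not called. The list had a summed level of 39.2 to 70.4 CPM in WT against 18.0 to 30.3 CPM in SCA7, and its part in the value of *Rgr* was not tested. *Opn4*, melanopsin of intrinsically photosensitive ganglion cells, was at 3.54 ± 0.317 CPM in WT against 2.01 ± 0.174 CPM in SCA7 (log2 fold change -0.81, edgeR adjusted p = 5.1e-04), and the ganglion cell markers are given below.

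The receptors did not follow the opsins. *Thrb* (ENSMUSG00000021779; chr14:17660261-18038090, plus strand) was downregulated, with a smaller log2 fold change than any downregulated gene of the cone list, and *Rxrg* and *Rora* were not called. *Thrb* was at 84.2, 91.2, 76.1 and 89.2 CPM in the WT libraries 1 to 4. In the SCA7 libraries 1 to 3 it was at 56.2, 52.4 and 53.1 CPM. All 3 SCA7 libraries were below all 4 WT libraries, which 18.3% of the genes tested also met. The means were 85.2 ± 6.72 CPM in WT against 53.9 ± 1.99 CPM in SCA7, and the log2 fold change was -0.66 (SE 0.07, 95% interval -0.81 to -0.51, adjusted p = 2.9e-05, edgeR), a fitted change of -36.7%. The annotation lists 7 transcripts of *Thrb*, and these gene-level counts do not separate TRβ2, the cone isoform, from the others.

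*Rxrg* (ENSMUSG00000015843; chr1:167598384-167639623, plus strand) was at 8.11, 7.70, 9.50 and 8.61 CPM in the WT libraries and at 8.46, 8.87 and 8.82 CPM in the SCA7 libraries. The SCA7 values lay inside the WT range. Its log2 fold change was 0.04 (SE 0.09, adjusted p = 0.76, edgeR), with a 95% interval of -0.15 to 0.23. A decrease as large as that of *Thrb*, or any other beyond -0.15, lies outside the interval. Changes between its limits were not excluded. In whole retina *Rxrg* may come from cells other than cones, and its level in cones was not measured.

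*Rora* (ENSMUSG00000032238; chr9:68653786-69388246, plus strand) was at 265, 257, 219.8 and 280.3 CPM in the WT libraries and at 290.1, 281 and 289 CPM in the SCA7 libraries. Every SCA7 library was above every WT library, which 19.3% of the genes tested also met, but the closest pair differed by less than 1 CPM. The log2 fold change was 0.17 (SE 0.08, 95% interval -0.01 to 0.34, adjusted p = 0.14, edgeR) and did not pass the test. It passed with the replicate number as a block (0.22, edgeR adjusted p = 0.022) and with *Xist*, a marker of sex, as a covariate (0.18, edgeR adjusted p = 0.024), in both cases under the FC threshold. *Rora* is widely expressed, and the 6 transcripts annotated for it were not separated.

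Relative to the mean of the other cone genes in the same library, both cone receptors were higher in SCA7. *Thrb* went from -0.28 ± 0.20 in WT to 0.18 ± 0.10 in SCA7 on the log2 scale, a difference of 0.46. For *Rxrg* the values were -3.59 ± 0.09 and -2.44 ± 0.03, a difference of 1.16. Both had an exact permutation p of 0.0286 (adjusted 0.0357), the smallest possible. The direction for *Thrb* depends on how the cone genes are pooled, since against their summed CPM, which *Gnb3* leads in SCA7, the difference was -0.18 (exact permutation p = 0.257), and that of *Rxrg* was 0.52. Without *Gnb3* and *Slc24a2*, again a choice made after seeing the data, the differences were 0.98 for *Thrb* and 1.68 for *Rxrg*.

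Levels of different genes were compared per kb of transcript (RPK, counts scaled by DESeq2 size factors and divided by the median transcript length). In WT the order was *Opn1sw* (33831 ± 2287 RPK), *Rora* (16241 ± 1646), *Opn1mw* (10607 ± 858), *Thrb* (7445 ± 606) and *Rxrg* (319 ± 28.4), and no neighbours in it overlapped within their SDs. In SCA7 retina *Rora* (18387 ± 430 RPK) and *Thrb* (4753 ± 188) led, followed by *Opn1sw* (417 ± 167) and *Rxrg* (331 ± 7.91), which did not differ beyond their spread, and *Opn1mw* (120.3 ± 74.7) was last. Ranked among 20083 genes by RPK, *Opn1sw* went from place 166 to place 9980 and *Opn1mw* from place 912 to place 12693. The ranks of the receptors moved less, *Thrb* from 1444 to 2361, *Rxrg* from 10596 to 10558 and *Rora* from 489 to 396. These levels depend on the length taken, above all for *Thrb* and *Rora*, whose exons together span 7.40 and 13.1 kb against a median transcript of 0.790 and 1.09 kb. With the union of exons as length, WT levels were 14349 RPK for *Opn1sw*, 4896 for *Opn1mw*, 1350.0 for *Rora*, 794 for *Thrb* and 255 for *Rxrg*, so *Opn1mw* then stood above *Rora*. In SCA7 by that length *Rxrg* (264 ± 6.32 RPK) stood above *Opn1sw* (177 ± 70.9), so their order depends on the length.

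The call of *Thrb* was set beside the rest of the nuclear receptor family. Of the 46 nuclear receptor genes other than the 3 described, 37 were tested, 3 were downregulated, 3 were upregulated and 31 were not called, and their median log2 fold change was 0.02. Over all genes tested the shares were 7.91% and 7.47%, close to these counts, so nothing is read from them about the family. *Thrb* had the fourth lowest log2 fold change of the 40 receptors tested. Below it stood *Esrrb*, a receptor that rods express (-1.19, SE 0.24, edgeR adjusted p = 0.013), *Nr2e3*, which represses cone genes in rods (-0.86, SE 0.11, edgeR adjusted p = 1.9e-04), and *Ppara*, a fatty acid receptor (-0.77, SE 0.11, edgeR adjusted p = 2.5e-04). The 3 that were upregulated were *Nr1h3* (0.72, edgeR adjusted p = 0.0011), the liver X receptor alpha, *Esr1* (0.57, edgeR adjusted p = 0.0042), the estrogen receptor alpha, and *Nr2f2* (0.42, edgeR adjusted p = 0.0026), the COUP-TFII receptor.

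The close relatives of the 3 receptors were not called. *Thra*, the other thyroid hormone receptor gene, had a log2 fold change of 0.12, *Rxra* of -0.04 and *Rxrb* of -0.07 (edgeR adjusted p = 0.20, 0.75 and 0.37). *Rorb*, which also acts on *Opn1sw*, ranged from 148 to 235 CPM in WT and from 183 to 280 CPM in SCA7, with a log2 fold change of 0.24 (SE 0.20, edgeR adjusted p = 0.43), and passed only with the replicate block. *Nr2f1*, a COUP-TF receptor that shapes the dorsal to ventral opsin pattern together with *Nr2f2*, was at 11.6 ± 0.862 CPM in WT against 14.1 ± 0.517 CPM in SCA7 (0.27, edgeR adjusted p = 0.019), under the FC threshold, and lost this without WT replicate 2 or SCA7 replicate 1 or 3 (adjusted p up to 0.082). The retinoic acid receptors *Rara* and *Rarb* had log2 fold changes of 0.17 (edgeR adjusted p = 0.13) and 0.33 (edgeR adjusted p = 0.018, and 0.10 without SCA7 replicate 1), and the clock receptor *Nr1d1* of -0.22 (edgeR adjusted p = 0.055). *Rara* passed the test with the replicate block and with *Xist* as a covariate. Per kb of median transcript length, *Rora* ranked 3 and *Thrb* 5 among the 49 receptor genes in WT, and *Rxrg* ranked 27, behind *Rxrb* (10) and *Rxra* (13). By the union of exons the places were 5 for *Rora*, 11 for *Thrb* and 19 for *Rxrg*, with *Rxrb* at 9 and *Rxra* at 12.

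**Figure D3:**
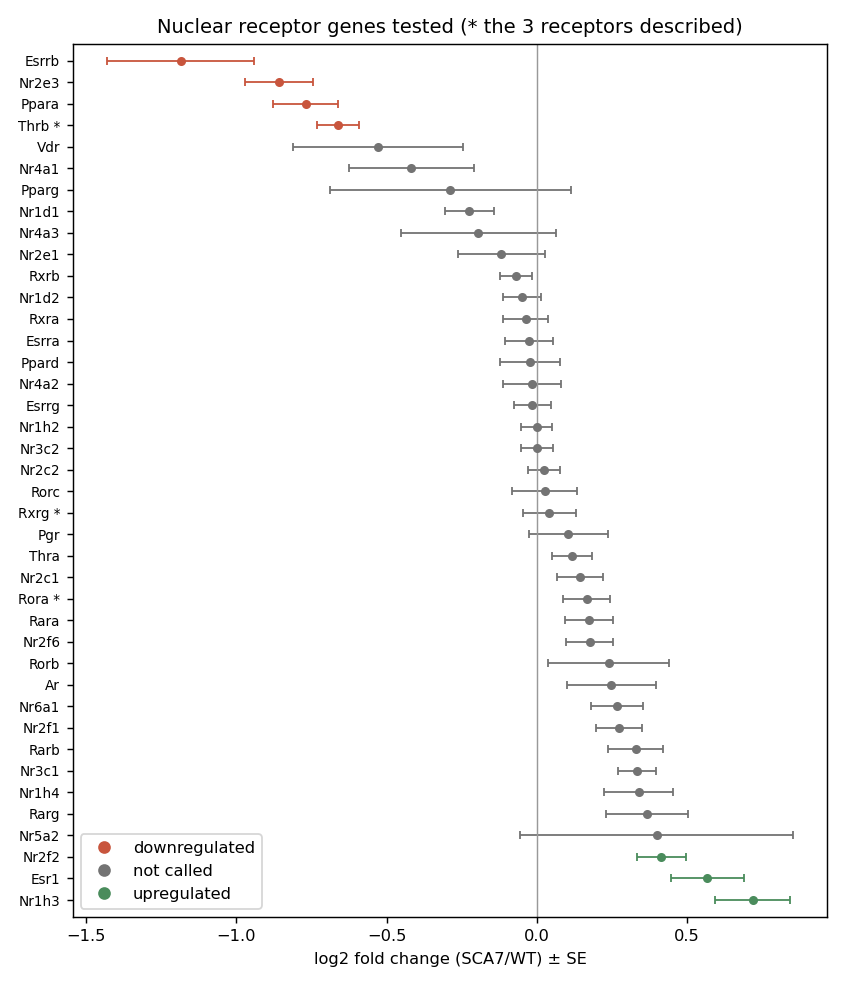
Log2 fold change (SCA7/WT) with its SE for the 40 nuclear receptor genes tested, sorted from lowest to highest, with the 3 receptors described marked by an asterisk, downregulated genes in red, upregulated in green and genes not called in grey. Thrb (-0.66) is the fourth from the top, while Rxrg (0.04) and Rora (0.17) lie among the genes that were not called.

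Genes that supply or limit the ligand of *Thrb* moved in both directions. Of 13 genes of thyroid hormone handling and response, 12 were tested, 3 were downregulated, 4 were upregulated and 5 were not called, and the list had a median of -0.18 on the log2 scale. Among all genes tested, 7.91% were called down and 7.47% up. *Crym*, a cytosolic protein that binds thyroid hormone, was upregulated from 65.7 ± 9.25 to 153 ± 5.86 CPM (1.22, SE 0.09, edgeR adjusted p = 2.7e-06). The transporter subunit *Slc7a8* and the receptor target *Hr* were upregulated too (0.53 and 0.49).

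The genes of this list that were downregulated rested on less even values. *Dio3*, the deiodinase that inactivates the hormone, was at 0.825 to 3.43 CPM in WT against 0.390 to 0.670 CPM in SCA7 (-1.78, SE 0.54, edgeR adjusted p = 0.046). Its adjusted p stayed under 0.05 in 2 of 7 fits with a mouse left out, those without WT replicate 1 or 2, and reached 0.15 in the others. It was also over 0.05 with the filter of 1 count in any library and with *Xist* as a covariate. *Ttr*, a carrier of the hormone made by pigment epithelium, was at -2.17 (edgeR adjusted p = 0.016), alongside the pigment epithelium markers given above, whose part in it was not tested. Without SCA7 replicate 2 the adjusted p was 0.061 for *Ttr* and 0.064 for *Rpe65*. The transporter *Slco1c1* was at -0.72 (edgeR adjusted p = 0.027), and it held in 5 of those 7 fits but not without SCA7 replicate 1 or 2 (adjusted p up to 0.0999), nor with the filter of 1 count in any library. *Dio2*, the activating deiodinase, ranged from 35.8 to 86.1 CPM in WT and from 31.5 to 41.6 CPM in SCA7 and did not pass the test (-0.58, SE 0.36, edgeR adjusted p = 0.29). *Klf9*, a known target of thyroid hormone receptors, was at 0.20 (edgeR adjusted p = 0.034), under the FC threshold, and lost this without WT replicate 1 or 2 or SCA7 replicate 1 or 3 (adjusted p up to 0.15).

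For *Rxrg*, whose family binds vitamin A derivatives, 13 genes of retinoid ligand handling were examined and 12 of them tested. Of these, 2 were downregulated, 1 was upregulated and 9 were not called, and the list had a median of -0.30 on the log2 scale. The shares over all genes tested were 7.91% down and 7.47% up, and nothing is read from these few calls about the list. With the replicate number as a block, *Stra6*, *Aldh1a3*, *Cyp26a1* and *Rdh10*, which did not pass in the comparison of all 7 mice without covariates (-0.76, -0.72, -0.37 and 0.15), had an adjusted p under 0.05. *Cyp26b1*, which degrades retinoic acid, was at 2.45 ± 0.364 CPM in WT against 1.34 ± 0.103 CPM in SCA7 (-0.87, SE 0.15, edgeR adjusted p = 0.0011), and *Crabp1*, a retinoic acid binding protein, at 8.39 ± 1.41 and 5.38 ± 0.455 CPM (-0.64, edgeR adjusted p = 0.0027). *Cyp26c1*, another degrading enzyme, was upregulated (0.91, edgeR adjusted p = 0.046) at 0.153 to 0.273 CPM in WT against 0.305 to 0.552 CPM in SCA7, but its adjusted p stayed under 0.05 only without WT replicate 3 or SCA7 replicate 2 and reached 0.20 with another mouse left out. It was also over 0.05 with the replicate block, in DESeq2 and in limma-voom.

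While the edgeR calls took 7.91% of all genes tested down and 7.47% up, the coregulators of nuclear receptors held no called gene. None of these 8 genes, among them the corepressor *Ncor1* and the coactivators *Ncoa1*, *Ncoa2* and *Ncoa3*, was called by the edgeR test, by DESeq2 or by limma-voom. Their log2 fold changes lay between -0.25 and 0.32 with a median of 0.10. At an unadjusted p under 0.05 there were 4, and 2 passed the test under the FC threshold, *Ppargc1a* (-0.25, edgeR adjusted p = 0.043) and *Nrip1* (0.32, edgeR adjusted p = 0.018). With a mouse left out, *Ppargc1a* kept this in 2 of 7 fits, those without WT replicate 4 or SCA7 replicate 3 (adjusted p up to 0.20), and lost it with DESeq2 scaling and in DESeq2, while *Nrip1* kept it in 4 of 7 and lost it without WT replicate 1 or SCA7 replicate 1 or 3 (up to 0.073).

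Among 13 other transcription regulators of photoreceptors, 4 were downregulated, 2 were upregulated and 7 were not called, with a median of -0.13. The shares over all genes tested were 7.91% down and 7.47% up. *Crx*, the factor that *Rora* acts with on the opsin genes, was at 1024 ± 77.5 CPM in WT against 678 ± 36.3 CPM in SCA7 (-0.59, SE 0.08, edgeR adjusted p = 1.7e-04), a log2 fold change close to that of *Thrb*. *Nrl*, the rod determining factor, had a log2 fold change of -1.58, *Mef2c* of -1.45 and *Samd11* of -1.35 (edgeR adjusted p = 4.6e-07, 4.3e-07 and 4.3e-06). *Samd7*, a repressor of cone opsin expression in rods, was upregulated (0.71, SE 0.17, edgeR adjusted p = 0.018), as was *Prdm1* (0.43, edgeR adjusted p = 0.016), and each kept an adjusted p under 0.05 in 5 of 7 fits with a mouse left out. *Samd7* lost it without WT replicate 3 or SCA7 replicate 1 and *Prdm1* without WT replicate 1 or SCA7 replicate 1, with adjusted p of at most 0.079 and 0.064, and *Samd7* also lost it with the filter of 1 count in any library and with *Xist* as a covariate. *Otx2*, which binds the same core as CRX, was at 0.27 (edgeR adjusted p = 0.0059), under the FC threshold. *Neurod1*, which is known to maintain *Thrb* expression in cones, was at 243 ± 21.1 CPM in WT against 252 ± 7.96 CPM in SCA7 (0.05, edgeR adjusted p = 0.65).

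**Figure D4:**
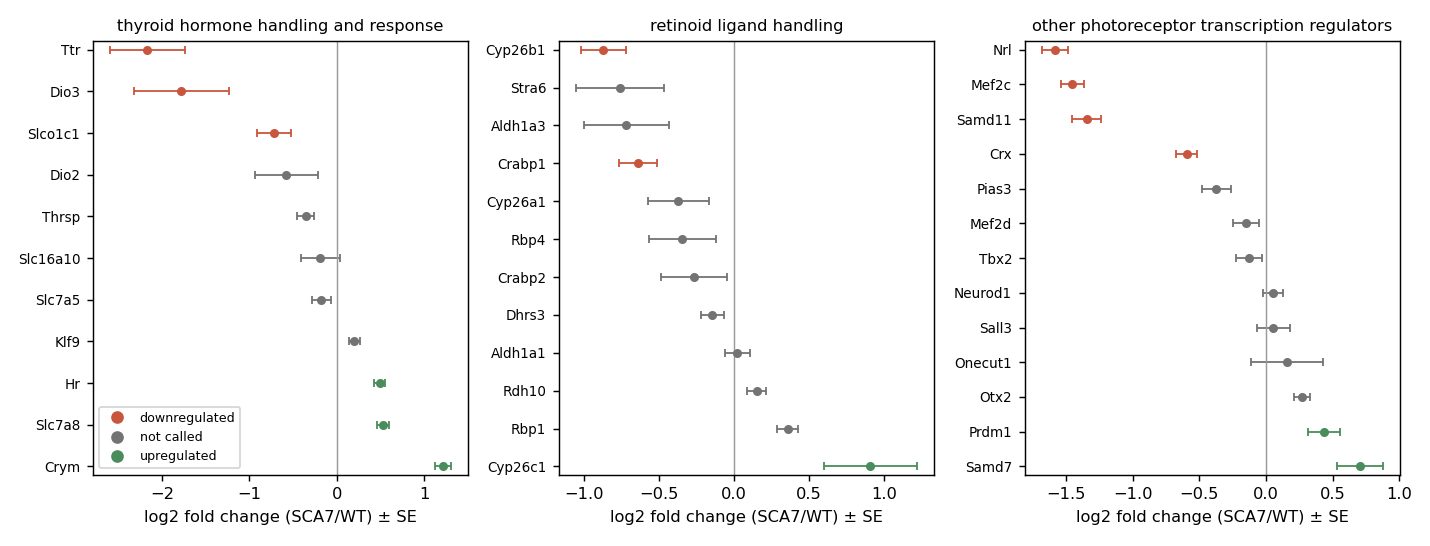
Log2 fold change (SCA7/WT) with its SE for the genes tested of thyroid hormone handling and response (1 gene tested is not shown), retinoid ligand handling (12) and other photoreceptor transcription regulators (13), coloured by call as in the nuclear receptor plot. Each list holds downregulated and upregulated genes, from Ttr (-2.17) to Crym (1.22) in the first and from Nrl (-1.58) to Samd7 (0.71) in the last.

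The cell type markers moved as follows beside these genes. All 10 rod markers were downregulated (median log2 fold change -1.14), and all 10 microglia markers were upregulated (median 1.22). Of the other retinal markers, 1 of 10 bipolar cell genes was downregulated (*Cabp5*) and 1 of 10 Müller glia genes upregulated (*Vim*). By the adjusted p alone, 5 bipolar cell genes were lower, and 5 Müller glia genes were higher and 1 was lower. Among all genes tested, 7.91% were called down and 7.47% up, and the adjusted p alone was passed by 14.2% in each direction. None of the 10 amacrine, 4 horizontal or 9 ganglion cell genes was called by the edgeR test, by DESeq2 or by limma-voom, though in the edgeR test 4, 2 and 1 of them had an adjusted p under 0.05, lower in SCA7, and 7, 2 and 3 an unadjusted p under 0.05. The part of these shifts in the values of *Thrb* and *Rora*, which other retinal cells also express, was not tested.

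Each of the 5 genes was also read beside its neighbours on the chromosome. *Opn1sw* overlaps *Calu* by 440 bases on the opposite strand, and *Calu* was at 113 ± 3.07 CPM in WT against 130.5 ± 3.49 CPM in SCA7 (0.20, edgeR adjusted p = 0.016, and up to 0.092 without SCA7 replicate 1 or 3), under the FC threshold. On its other side, at 7840 bases, *Ccdc136* was downregulated from 77.9 ± 8.40 to 43.9 ± 1.71 CPM (-0.83, SE 0.08, edgeR adjusted p = 1.7e-05), far less than *Opn1sw* itself. Near *Opn1mw*, *Irak1* was at 0.36 (edgeR adjusted p = 0.0023), under the FC threshold, and *Tex28*, 183 bases beyond *Opn1mw*, had at most 1 count in any library. Because the library kit marks strand but the counting option is not given in the sources used here, *Opn1sw* and *Calu* may share reads.

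*Thrb* lies on the chromosome of the knock-in, 3.55 Mb from *Atxn7*, so a difference carried by the DNA around the knock-in and an effect of the genotype cannot be told apart there. The genes on either side of *Thrb* are themselves nuclear receptors, *Rarb*, which lies between *Atxn7* and *Thrb*, and *Nr1d2*. Neither was downregulated, with log2 fold changes of 0.33 for *Rarb* and -0.05 for *Nr1d2* (edgeR adjusted p = 0.018 and 0.60). The other genes that overlap *Thrb* had at most 3 counts in any library. Next to *Rxrg*, *Lrrc52* and *Lmx1a* had at most 3 counts, and next to *Rora*, *Ice2* (-0.13) and *Vps13c* (0.14) did not pass the test (edgeR adjusted p = 0.093 and 0.083).

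The genes with the most similar profile were found as those with the smallest root mean square difference of log2 CPM, relative to the own WT mean, over the 7 libraries and 14702 genes that averaged 1 CPM or more. Each opsin was nearest to the other (0.213), and the next genes were far away, *Gm14091*, an antisense transcript (1.44 from *Opn1sw* and 1.53 from *Opn1mw*), and *Hdc*, histidine decarboxylase (1.504 and 1.60). *Thrb* was nearest to *Etv4* (0.0614), *Pde6a*, a rod phosphodiesterase subunit (0.0630), and *Dnajc28* (0.0663). The profile of *Rxrg* was nearest to *Ercc1*, *Ubxn8* and *Ephx1* (0.0346 to 0.0386) and that of *Rora* to *D5Ertd579e*, *Akap13* and *Sidt2* (0.0171 to 0.0255). For these flat profiles a small distance says little, since many genes lie close to no change.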

How the data were processed

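Retinas of WT (n = 4) and SCA7 (n = 3) mice were profiled by total RNA-seq. The authors depleted ribosomal RNA, made stranded libraries, mapped single reads to mm10 with TopHat2 2.0.14 and Bowtie2 2.1.0, counted them with HTSeq 0.6.1 on Ensembl release 90, and deposited raw counts per gene, with no normalization. The HTSeq mode and strand option are not given in the sources used here. Names, positions and lengths came from GENCODE M21, which held 52403 of the genes, and 45 genes tested had no entry. The ChIP-seq data of the study were not analysed here, and the single values of a few genes are not reported here.

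The genotypes were compared in R 4.3.3 with edgeR 4.0.16 (filterByExpr, TMM, robust glmQLFit and glmQLFTest without covariates), with Benjamini-Hochberg adjustment over 20128 genes. Ratios used log2 of CPM with 0.1 CPM added and an exact permutation test, whose smallest p is 0.0286. Total counts set a precision of 0.00972 to 0.0187 CPM for 1 count, and this covers counting error only. RPK used DESeq2 1.42.0 size factors. Alternatives were DESeq2 scaling, TMM without rod and cone genes, a block for the replicate number, *Xist* as a covariate, filters of 1 count in any and 10 counts in every library, DESeq2, limma-voom (limma 3.58.1), an adjusted p under 0.01, no FC threshold, other cone lists, and each library left out. The fits were tested on simulated counts with known changes.

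The 5 genes and all lists were chosen with earlier results of these data known, so they are not independent of them. Named were the 5 genes, the cone genes, fixed relatives and regulators, the 2 largest called decreases and increases of each list, neighbours and the 3 most similar profiles. The other genes named, such as *Ppara*, *Hr*, *Slc7a8*, *Slco1c1*, *Klf9*, *Samd11*, *Opn4*, *Nrip1* and *Ppargc1a*, were chosen after their values were seen.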

Additional observations from a re-analysis of the deposited data

Results flagged for a closer look

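In 59 values of the WT mice that were examined, 3 had a library farther from the rest than Dixon's 95% limit for 4 samples, where chance gives about 1 in 20. All 3 were WT replicate 3, and none was a value of the opsins or of *Thrb*, *Rxrg* or *Rora*. *Gnat2* was at 241 CPM in that library against an average of 215 CPM in the other WT mice, still far above every SCA7 mouse. *Rgr* was at 40.0 CPM against 81.2 CPM and *Ttr* at 40.3 CPM against 78.5 CPM, both lower, and the part of pigment epithelium, whose summed markers ranged from 39.2 to 70.4 CPM in WT, was not tested.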

How the results depend on the processing

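The opsins and *Thrb* stayed downregulated in every fit, with log2 fold changes of -6.44 to -6.31 for *Opn1sw*, -6.55 to -6.37 for *Opn1mw* and -0.66 to -0.63 for *Thrb* over 9 alternatives. *Rora* passed the test with the replicate number as a block (0.22, edgeR adjusted p = 0.022) and with *Xist* as a covariate (0.18, edgeR adjusted p = 0.024), and over 9 alternatives its adjusted p lay between 0.022 and 0.15, while that of *Rxrg* lay between 0.68 and 0.77. Without an FC threshold 2853 genes were down and 2853 up, against 1592 and 1504. The opsin ratio was 0.23 with nothing added and turned to -0.52 with 1 CPM added. *Thrb* against the summed CPM of the cone genes turned to -0.18, not past the exact permutation test. With the union of exons as length the WT levels were 14349, 4896, 794, 255 and 1350.0 RPK for *Opn1sw*, *Opn1mw*, *Thrb*, *Rxrg* and *Rora*.

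With each library left out in turn, the ranges were 1196 to 1731 genes down and 1215 to 1559 up (both lowest without SCA7 replicate 1), -6.62 to -6.07 for *Opn1sw*, -6.99 to -6.09 for *Opn1mw*, -0.71 to -0.63 for *Thrb*, 0.10 to 0.21 for *Rora* and -0.0039 (without WT replicate 2) to 0.10 for *Rxrg*. The largest adjusted p of the opsins and *Thrb* was 0.0013. For the ratios, given without a test, they were 0.02 to 0.28 between the opsins and, relative to the cone genes, -5.54 to -4.98 for *Opn1sw*, -5.82 to -4.99 for *Opn1mw*, 0.36 to 0.50 for *Thrb* and 1.13 to 1.19 for *Rxrg*. Of 93 other listed or neighbouring genes past an adjusted p of 0.05, 69 stayed past it in every fit and all 93 kept their sign, while of 84 not past it 58 stayed so in every fit.

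Whether the replicate numbers pair mice is not stated in the labels, though the animal numbers in the titles lie close together within replicates 1 to 3. WT and SCA7 mice of the same number deviated with correlations of 0.0739, 0.381 and 0.155, against -0.379 to 0.205 for different numbers. SCA7 replicates 1 and 3 correlated best with WT replicate 4 (0.127 and 0.205), which has no SCA7 mouse of its number. Pairing was thus neither shown nor excluded, and the block stayed an alternative. With the number as a block, 1706 genes were down and 1629 up. With 4 and 3 mice, shifts of *Rxrg* within its interval of -0.15 to 0.23 were not excluded, and isoforms and cell types were not separated.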
